A study of Mus musculus with 2 samples.

Results

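The 8 genes described here are the glucocorticoid receptor gene Nr3c1, 5 genes known to respond to glucocorticoids (Fkbp5, Tsc22d3, Per1, Zbtb16 and Sgk1) and the metallothionein genes Mt1 and Mt2. They were taken by symbol, and all 8 were among the 28692 genes listed for both libraries. They were chosen by symbol after earlier looks at their levels across these cell classes in both libraries, so their levels and ratios are a description, with no test. The bleomycin library came from mice given bleomycin, which damages DNA and scars the rodent lung, and the saline library from mice given saline. All mice were Lepr-Cre;Rosa26-tdtomato animals of 8 to 10 weeks, in which a Cre recombinase driven by the leptin receptor gene Lepr switches on a lasting red fluorescent reporter, and live reporter-positive lung cells were sorted and sequenced in droplets. A sorted cell therefore had Lepr promoter activity itself or in a forebear only as far as the reporter and the sort are exact, which was not tested. Each group is 1 library. How many mice stand behind a library, the bleomycin dose and the time of sampling are not stated in the labels, and library and treatment cannot be told apart.

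Glucocorticoids enter the cell and bind the receptor encoded by Nr3c1, which waits in the cytoplasm in a complex with heat shock proteins and immunophilins. The bound receptor moves to the nucleus and acts on transcription, often at palindromic DNA sites called glucocorticoid response elements. Fkbp5 encodes an immunophilin that lowers the receptor's affinity for hormone, and its induction is a feedback loop. Metallothioneins are small cysteine-rich proteins that bind zinc and copper. Their genes are switched on by metals through the factor MTF1, which binds metal response elements, and also by glucocorticoids and inflammatory signals.

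The bleomycin library held 61537182 unique molecular identifiers (UMIs, each standing for 1 captured transcript) over 4473 barcodes, and the saline library 37570380 over 5455. After filtering, 4308 bleomycin cells (median 12300 UMIs) and 5195 saline cells (median 6302 UMIs) were kept, and 33 barcodes occurred in both libraries. Clusters were named from marker genes, and each class name stands for cells like that type. The bleomycin library gave 3517 fibroblasts, 412 macrophages, 185 endothelial cells and 99 smooth muscle cells, against 3561, 725, 155 and 102 in the saline library. The median share of cells with a UMI of the class's own markers was 92.3% or more in endothelial cells, 90.6% or more in macrophages, 96.0% or more in smooth muscle cells and 96.4% or more in fibroblasts of either library. Levels are in UPM, the UMIs of a gene for every 1000000 UMIs counted in a class of 1 library, with an exact 95% Poisson interval that covers counting error only. The words rose and fell are kept for genes where the higher library had at least 50 UMIs and 20 UPM and the levels differed at least 2-fold; no spread between mice can be given.

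Promoter windows of 6 of the 8 genes, 14 windows in all, were matched in the RefSeq table of build GRCm38.p6, which is the build of the deposited matrices (mm10). The 3 windows shown are those of the metallothionein genes, whose levels moved together, and the Sgk1 window that holds a complete palindromic glucocorticoid response element. Capitals in the Mt1 and Mt2 windows mark the letters TGCNCNC on either strand, with N any base and overlaps allowed. TGCNCNC is a loose search pattern for the metal response core, so not every match need be that core. Capitals in the Sgk1 window mark the palindrome.
Mt2, chr8:94172368-94172667, plus strand: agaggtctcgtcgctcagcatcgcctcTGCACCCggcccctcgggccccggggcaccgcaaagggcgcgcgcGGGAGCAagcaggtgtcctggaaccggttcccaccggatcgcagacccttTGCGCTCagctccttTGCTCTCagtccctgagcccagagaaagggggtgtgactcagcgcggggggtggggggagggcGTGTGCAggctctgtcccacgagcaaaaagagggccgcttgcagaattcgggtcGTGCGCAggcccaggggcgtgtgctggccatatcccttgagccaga
Mt1, chr8:94178839-94179138, plus strand: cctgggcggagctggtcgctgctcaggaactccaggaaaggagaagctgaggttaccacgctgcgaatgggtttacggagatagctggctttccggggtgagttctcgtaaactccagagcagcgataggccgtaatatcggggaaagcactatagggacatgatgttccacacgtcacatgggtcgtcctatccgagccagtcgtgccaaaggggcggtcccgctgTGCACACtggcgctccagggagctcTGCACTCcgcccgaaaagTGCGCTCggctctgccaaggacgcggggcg
Sgk1, chr10:21993640-21993939, plus strand: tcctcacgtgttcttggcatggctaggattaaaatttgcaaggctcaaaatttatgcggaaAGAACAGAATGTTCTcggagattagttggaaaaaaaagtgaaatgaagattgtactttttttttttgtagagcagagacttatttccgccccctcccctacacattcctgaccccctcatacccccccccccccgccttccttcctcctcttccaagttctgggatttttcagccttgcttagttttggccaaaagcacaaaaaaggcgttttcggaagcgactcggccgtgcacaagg

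The TGCNCNC pattern occurred 6 times in the Mt2 window and 3 times in the Mt1 window, as it did in 1 Sgk1 window that is not shown. Of 32851 RefSeq promoter windows of that length, 51.0% held at least 1 such match, 7.10% held 3 or more and 2.30% held 4 or more. The genes are neighbours on chromosome 8 (Mt2 at 94172664 to 94173568, Mt1 at 94179082 to 94180327), with 5513 bases between the end of Mt2 and the start of Mt1 in the GENCODE annotation. The palindromic glucocorticoid response element was found in 1 of the 6 Sgk1 windows and in 3 of all 32851 windows. It begins 189 bases before that start site. The half-site TGTTCT, read on both strands and counted also inside the palindrome, occurred in 19.0% of all windows. It was found in 3 of the 6 Sgk1 windows and 1 of the 3 Tsc22d3 windows, and these letters were not in the Fkbp5, Per1, Mt1 and Mt2 windows. The E-box CACGTG, a site of the circadian factors CLOCK and BMAL1, occurred in 7.15% of all windows, among them the Fkbp5 window, 1 of the 2 Per1 windows and the Sgk1 window shown. These matches are letters in a window and were not measured as bound sites.

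In fibroblasts, 4 of the 8 genes rose after bleomycin (Fkbp5, Sgk1, Mt1 and Mt2) and 1 fell (Nr3c1), where 2.96% of the 12270 genes with at least 50 UMIs rose and 4.65% fell. Of the 5881 that also had the 20 UPM the rule needs, 6.17% rose and 9.69% fell. In smooth muscle cells 4 rose (Fkbp5, Tsc22d3, Mt1 and Mt2) and 1 fell (Sgk1), against 6.08% and 3.73% of 2386 genes, or 6.31% and 3.87% of those that could pass. In endothelial cells 1 rose (Fkbp5) and 2 fell (Nr3c1 and Per1), against 9.19% and 9.65% of 5204 genes, or 9.67% and 10.2% of those that could pass. In macrophages 1 rose (Fkbp5) and 0 fell, against 2.38% and 5.12% of 6465 genes, or 2.89% and 6.21% of those that could pass. At least 50 UMIs in 1 library were reached by 8 of 8 genes in fibroblasts and endothelial cells and by 7 of 8 in macrophages and smooth muscle cells. Because the genes were chosen with these levels known, the counts are set beside the shares of all genes as a description only.

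**Figure D1:**
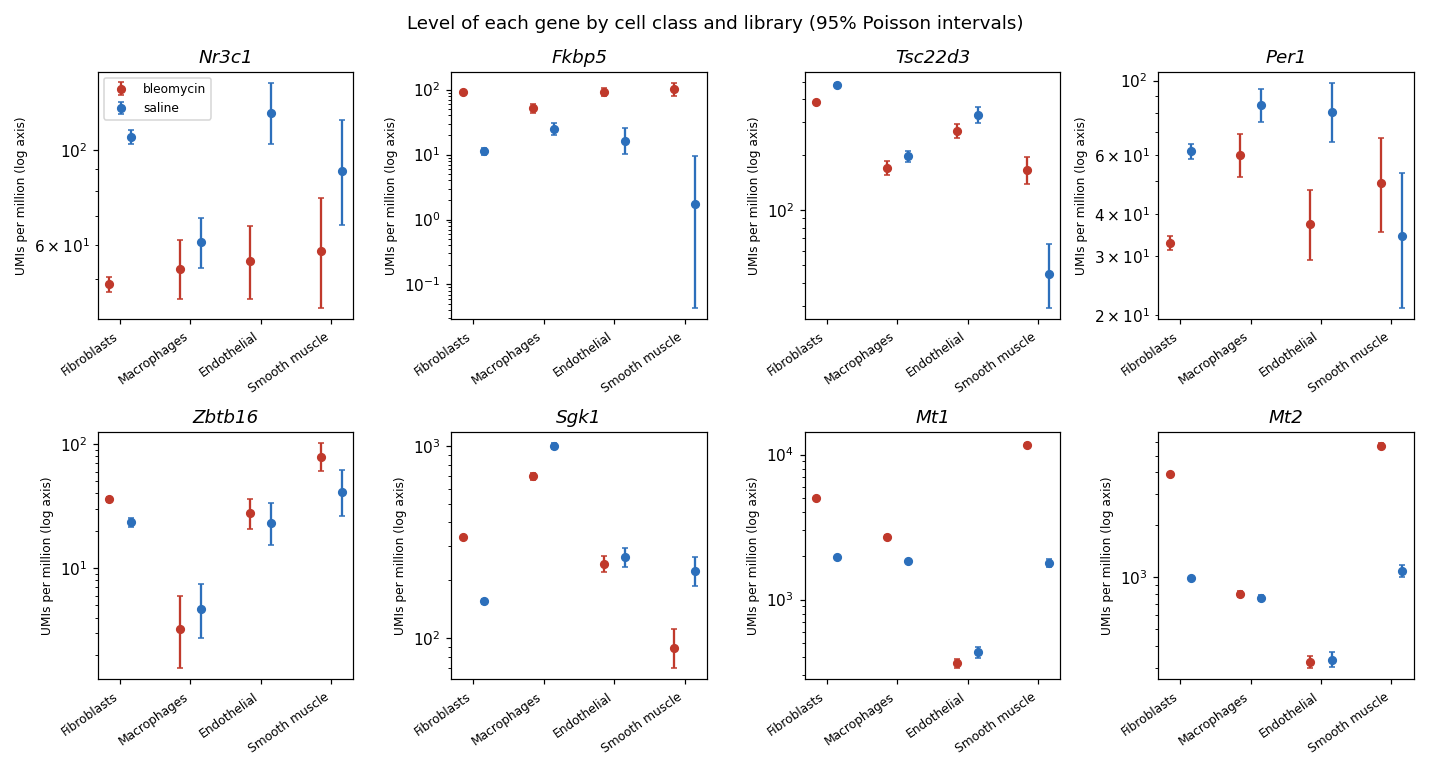
Level of each of the 8 genes (vertical log axis, UPM) in 4 cell classes, with the bleomycin library in red at the left of the saline library in blue and 95% Poisson intervals. Fkbp5 lay higher in the bleomycin library in all 4 classes, from 51.8 UPM in macrophages to 101 UPM in smooth muscle cells.

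**Figure D2:**
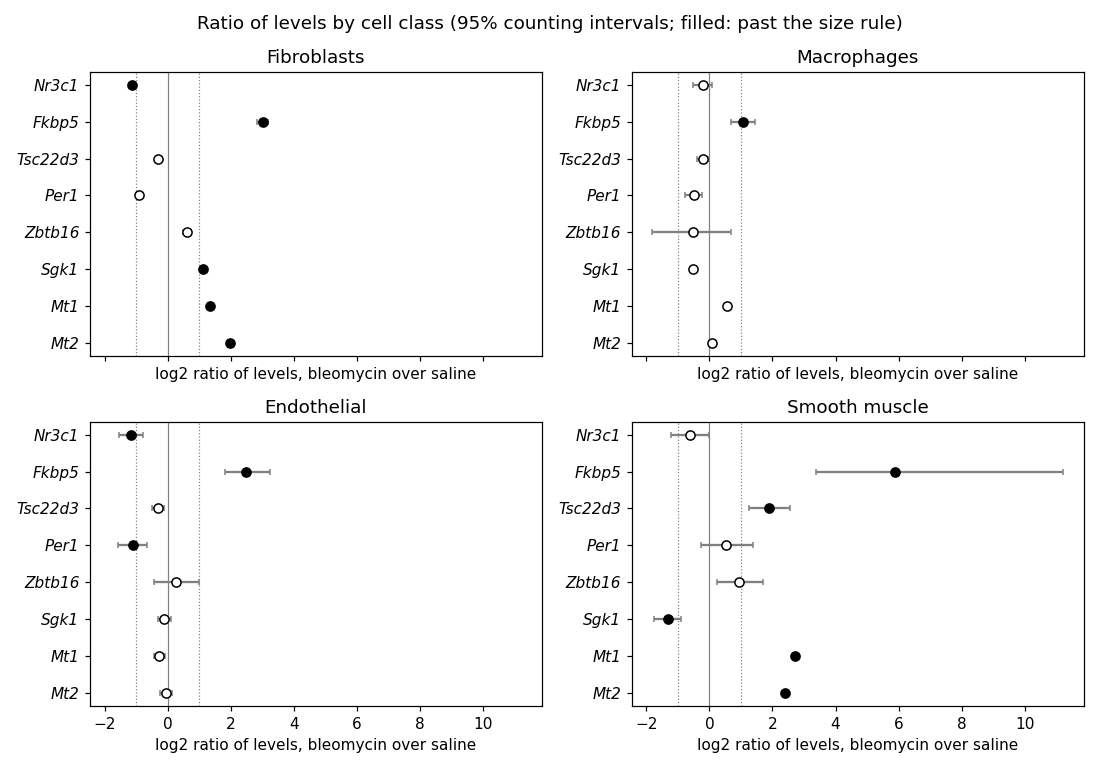
Ratio of bleomycin over saline levels for each gene and class (horizontal axis, log2, with no prior added), with 95% counting intervals; filled points are past the 2-fold size rule and dotted lines mark it. The widest interval is that of Fkbp5 in smooth muscle cells, where the saline library held 1 UMI.

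The receptor gene Nr3c1 stood at 48.5 UPM (46.7 to 50.5) in bleomycin fibroblasts and 107 UPM (103 to 111) in saline fibroblasts, a log2 ratio of -1.13. In endothelial cells it stood at 54.9 UPM after bleomycin and 122 UPM after saline (log2 ratio -1.14). Macrophages had 52.8 UPM after bleomycin and 60.8 UPM after saline, and smooth muscle cells 58.2 and 89.3 UPM in the same order, neither past the rule. In the bleomycin library the 4 classes followed each other with overlapping intervals, smooth muscle cells first and fibroblasts last. In the saline library pericytes (126 UPM), endothelial cells, fibroblasts, smooth muscle cells and macrophages each overlapped the next, and epithelial cells were lowest at 27.7 UPM. Within kinds of fibroblast the fall did not pass the rule: alveolar fibroblasts alone, 294 bleomycin and 1520 saline cells, had 95.9 and 113 UPM (log2 ratio -0.23), or 66.1 and 113 UPM (log2 ratio -0.77) where each library was clustered alone, and adventitial ones 47.3 and 90.9 UPM (log2 ratio -0.93). In endothelial cells other than lymphatic ones, a split chosen after seeing the data, the log2 ratio was -0.56; lymphatic cells were 70 of the 185 bleomycin endothelial cells and 21 of the 155 saline ones.

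Fkbp5, on chromosome 17 from 28399094 to 28517527, was higher after bleomycin in all 4 classes. Fibroblasts had 4717 UMIs and 90.5 UPM (87.9 to 93.1) in the bleomycin library, against 289 UMIs and 11.2 UPM (9.98 to 12.6) in the saline library, an 8.05-fold ratio (7.15 to 9.10). Endothelial cells had 92.7 UPM (79.4 to 107) after bleomycin and 16.5 UPM (10.1 to 25.4) after saline. Smooth muscle cells had 82 UMIs after bleomycin and 1 UMI after saline, so that the ratio of 59.1 has an interval of 10.3 to 2362. These 3 differences lie far outside counting error, and the smooth muscle one is known only to about its lower bound. Macrophages had 51.8 UPM (44.0 to 60.5) after bleomycin and 24.9 UPM (20.1 to 30.6) after saline, a 2.08-fold ratio (1.60 to 2.72) that sits at the threshold and did not pass it in alveolar macrophages alone (log2 ratio 0.96). Neutrophil markers summed to 826 UPM in bleomycin macrophages and 30.4 UPM in saline macrophages, and B or plasma cell markers to 103 and 1804 UPM; their part in the macrophage values was not tested. Pericytes, with 48 bleomycin and 50 saline cells too few to be compared by the rule, had 27 and 0 UMIs, at least 6.67-fold higher after bleomycin when the saline library is set to 3 counts. In the saline library macrophages had the highest level and overlapped endothelial cells, while in the bleomycin library smooth muscle cells, endothelial cells and fibroblasts overlapped and macrophages were lowest.

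The rise of Fkbp5 was found within alveolar and adventitial fibroblasts. Alveolar fibroblasts had 43.4 UPM after bleomycin and 6.45 UPM after saline (log2 ratio 2.58). The 294 bleomycin and 1520 saline cells of that kind in the joint clustering became 1184 and 1621 where each library was clustered alone, an alternative added after seeing the data, and fibrotic fibroblasts went from 3017 to 1071 bleomycin cells. In the clustering of each library alone Fkbp5 in alveolar fibroblasts had 80.3 and 7.11 UPM (log2 ratio 3.33). Adventitial fibroblasts, separated at a finer clustering into 195 and 322 cells, had 84.9 and 18.3 UPM (log2 ratio 2.15). The 8 bleomycin fibroblast clusters of at least 50 cells ranged over 43.3 to 141 UPM and the 6 saline ones over 5.68 to 20.2 UPM, with no overlap. Of 12241 genes, 3.21% had every bleomycin fibroblast cluster above every saline one; clusters of 1 library share its cells' source and are not replicates. The highest bleomycin cluster was led by Mmp3 and S100a4 and the lowest by the alveolar genes Mfap4 and Tcf21. After each cell was thinned to 2000 UMIs, 15.7% (14.5 to 16.9) of bleomycin fibroblasts and 1.85% (1.44 to 2.35) of saline fibroblasts held an Fkbp5 UMI; without thinning the shares were 61.8% and 7.44%. In smooth muscle cells the thinned shares were 24.2% of 99 bleomycin cells and 0 of 102 saline cells, which allows a share of up to 2.94% at that depth as 3 counts of 102 (Clopper-Pearson upper bound 3.55%); without thinning 1 saline cell held a UMI. The thinned share in saline epithelial cells was 1.28%.

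**Figure D3:**
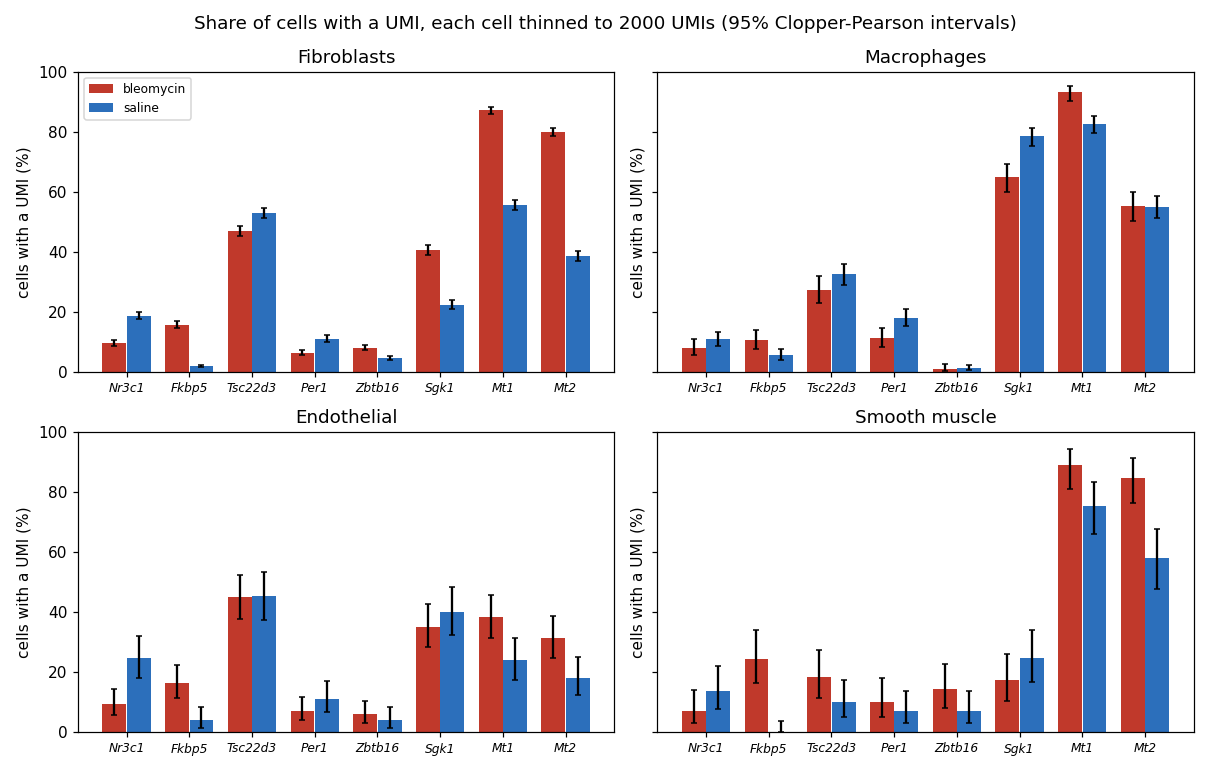
Share of cells with at least 1 UMI of each gene (vertical axis, percent) after thinning every cell to 2000 UMIs, in 4 cell classes, with bleomycin bars left of saline bars and 95% Clopper-Pearson intervals. Fkbp5 was found in 15.7% of bleomycin fibroblasts and 1.85% of saline fibroblasts.

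Transcripts set free from other cells can add to a droplet's counts, so levels were set beside those of 7 fibroblast markers. In bleomycin macrophages these markers reached 0.0351 to 0.0873 times their fibroblast level, while Fkbp5 reached 0.572 times its own. In bleomycin endothelial cells the markers reached 0.0178 to 0.0579 times and Fkbp5 1.02 times. The lowest Fkbp5 level among other lineages was 1.75 times the macrophage level after bleomycin, and the part of free RNA in these values was not tested. For Mt1 in bleomycin endothelial cells the ratio was 0.0724 and for Mt2 0.0828, close above the marker range. Their ratios in saline endothelial cells, 0.220 and 0.340, lay within the marker range of 0.107 to 0.434, so that these counts were not above that of the markers.

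Tsc22d3, which encodes the glucocorticoid-induced leucine zipper protein GILZ, did not follow Fkbp5 in pooled fibroblasts. It stood at 387 UPM (382 to 393) after bleomycin and 482 UPM (474 to 491) after saline, a log2 ratio of -0.32 that is outside counting error and inside the 2-fold rule. Within adventitial fibroblasts it was higher after bleomycin, short of the rule. The log2 ratios there were 0.738 at the finer clustering and 0.625 where each library was clustered alone. In the joint clustering the bleomycin alveolar cluster had 504 UPM, below the saline alveolar clusters at 597 and 761 UPM. Smooth muscle cells rose to 165 UPM (138 to 195) in the bleomycin library, against 44.6 UPM (29.2 to 65.4) in the saline library (log2 ratio 1.86). That rise is held by 133 and 26 UMIs, and 1.21 was the log2 ratio when each cell was thinned, with too few UMIs left for the rule. With the lowest level in other lineages subtracted it was 0.000, and expression by those lineages enters that floor. Bleomycin smooth muscle cells had 0.425 times the fibroblast level, above the fibroblast marker range of 0.0283 to 0.205. Saline ones had 0.0926 times, within the marker range of 0.0183 to 0.358. The part of free RNA was not tested. The saline smooth muscle level was below that of every other saline class, epithelial cells with 119 UPM being next. Fibroblasts were the highest of the 4 classes in both libraries, while the 48 bleomycin pericytes had 461 UPM (395 to 534).

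Per1, a clock gene that glucocorticoids also induce, was lower after bleomycin in 3 of the 4 classes and fell past the rule in endothelial cells. Fibroblasts had 32.8 UPM (31.2 to 34.3) after bleomycin and 61.5 UPM (58.5 to 64.6) after saline, a log2 ratio of -0.89 that did not reach the rule. The 8 bleomycin fibroblast clusters, at 25.9 to 40.0 UPM, lay below the 6 saline clusters, at 44.3 to 87.6 UPM, and 3.41% of 12241 genes had that order. Endothelial cells fell to 37.3 UPM in the bleomycin library, against 80.6 UPM in the saline library (log2 ratio -1.09), with -0.59 in those other than lymphatic. Macrophages had 59.9 and 84.6 UPM after bleomycin and saline, and smooth muscle cells 49.5 and 34.3 UPM with overlapping intervals. Immediate early and dissociation genes, which respond within minutes to stress and tissue digestion, were counted beside it. Lists here and below count genes with at least 20 UMIs over both libraries, a lower floor than for the shares of all genes. In fibroblasts 16 of 23 fell and 0 rose, and in endothelial cells 14 of 22 fell and 1 rose. In macrophages 6 of 23 fell and in smooth muscle cells 10 of 22. Of all genes that could pass the rule, 9.69%, 10.2%, 6.21% and 3.87% fell in these classes, in the same order. Egr1 stood at 287 UPM in bleomycin fibroblasts and 1356 UPM in saline fibroblasts. The part of the immediate early and dissociation response in the Per1, Sgk1 and metallothionein levels was not tested.

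Zbtb16, a zinc finger transcription factor that glucocorticoids induce, had 35.8 UPM (34.2 to 37.5) in bleomycin fibroblasts and 23.4 UPM (21.5 to 25.3) in saline fibroblasts, short of the rule. Within alveolar fibroblasts of the joint clustering it rose to 77.4 UPM, against 24.6 UPM in saline (log2 ratio 1.62), with 54.0 and 30.3 UPM (log2 ratio 0.81), short of the rule, where each library was clustered alone. It rose within adventitial fibroblasts to 32.8 UPM, against 12.8 UPM (log2 ratio 1.29). In alveolar fibroblasts 1.17% of all 9408 genes measured rose. Fibrotic fibroblasts had 33.5 UPM in the bleomycin library, with bleomycin clusters from 5.96 UPM (led by Thbs4) to 56.7 UPM (led by Ptn and Eln), and 4 UMIs in the 48 saline cells. Smooth muscle cells had the highest level in both libraries, 79.2 UPM after bleomycin and 41.2 UPM after saline, and macrophages were near the floor with 10 and 17 UMIs.

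Sgk1, a serum- and glucocorticoid-induced kinase that regulates ion channels, went in opposite directions. In fibroblasts it rose to 335 UPM (330 to 340) after bleomycin, against 155 UPM (151 to 160) after saline, a log2 ratio of 1.10. In smooth muscle cells it fell to 89.1 UPM (69.7 to 112) after bleomycin, against 223 UPM (187 to 265) after saline, a log2 ratio of -1.32. Macrophages were highest in both libraries, with 694 UPM after bleomycin and 999 UPM after saline, where the alveolar macrophage clusters had 861 and 1258 UPM and the monocyte or interstitial ones 161 and 101 UPM. Within kinds of fibroblast the rise depended on how they were drawn. In the joint clustering alveolar fibroblasts had 112 UPM after bleomycin and 155 UPM after saline (log2 ratio -0.46), but 306 and 164 UPM (log2 ratio 0.90) where each library was clustered alone. Adventitial fibroblasts had 111 and 89.9 UPM, and fibrotic ones 357 UPM (352 to 362) in 3017 bleomycin cells and 89.3 UPM (66.5 to 117) in 48 saline cells. Bleomycin fibroblast clusters ranged over 101 to 520 UPM, the highest being the Mmp3 and S100a4 cluster, and saline clusters over 112 to 220 UPM.

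**Figure D4:**
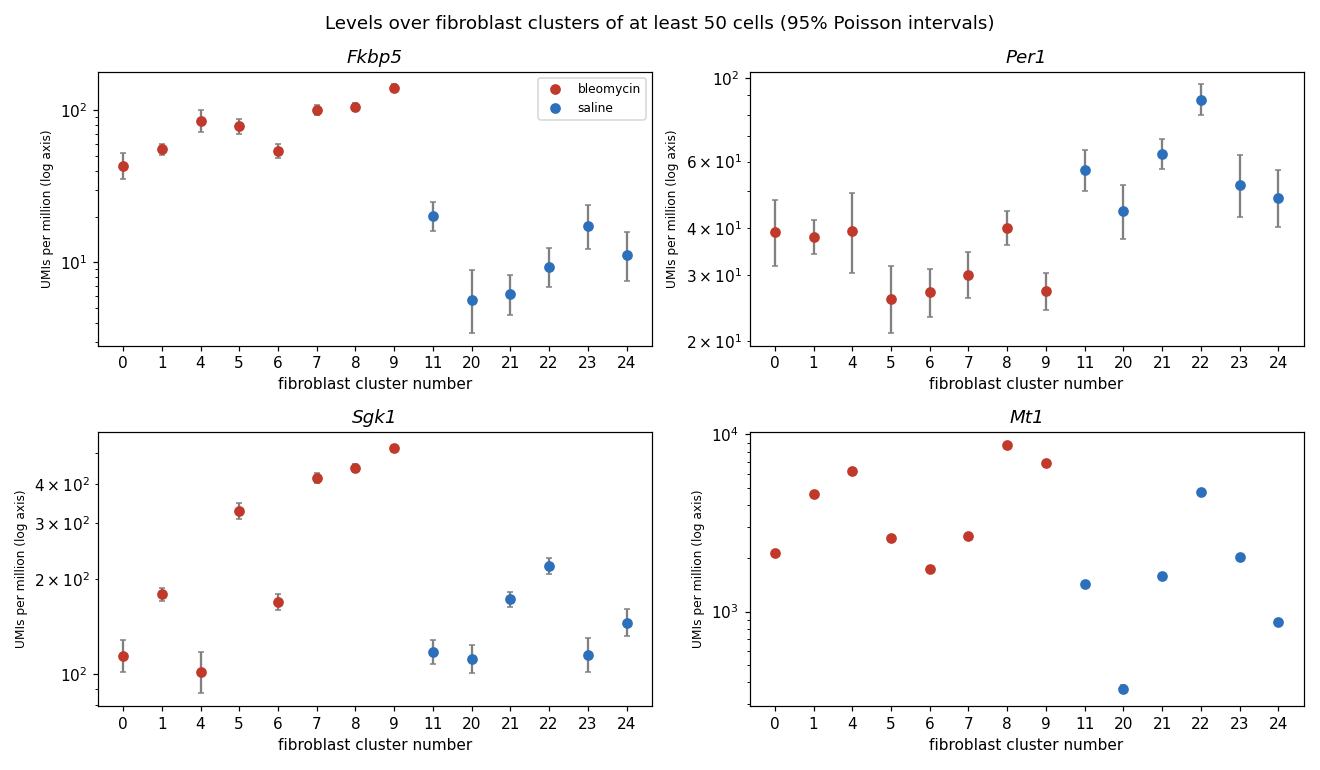
Levels of 4 of the genes (vertical log axis, UPM) over fibroblast clusters of at least 50 cells (horizontal axis, cluster numbers), with bleomycin clusters in red at the left and saline clusters in blue, and 95% Poisson intervals. Fkbp5 and Per1 show no overlap between libraries, in opposite directions, while Sgk1 and Mt1 overlap.

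The metallothioneins rose in smooth muscle cells and fibroblasts, and their largest ratio among the 4 classes was in smooth muscle cells, a difference between classes that was not tested. Mt1 stood at 11717 UPM in bleomycin smooth muscle cells and 1796 UPM in saline ones, a 6.52-fold ratio (6.12 to 6.96), and Mt2 at 5715 and 1077 UPM, a 5.31-fold ratio (4.88 to 5.78). In fibroblasts Mt1 stood at 5014 UPM after bleomycin and 1976 UPM after saline (2.54-fold), and Mt2 at 3899 and 983 UPM (3.97-fold). Pericytes, too few to be compared by the rule, had 1117 and 277 UPM of Mt1 (429 and 79 UMIs). Their Mt2 stood at 752 and 73.7 UPM (289 and 21 UMIs), further apart than in smooth muscle cells, while their Mt1 levels lay less far apart. Neither gene passed the rule in macrophages, with 2713 UPM of Mt1 after bleomycin and 1840 UPM after saline, and 797 and 755 UPM of Mt2. Nor did they in endothelial cells, with 363 and 434 UPM of Mt1 and 323 and 334 UPM of Mt2. In saline endothelial cells 1 cell held 169 of the 528 Mt1 UMIs and 45.8% came from the top 1% of cells. With the top 1% of cells left out of each library, the endothelial log2 ratio turned from -0.26 to 0.47 for Mt1 and from -0.05 to 0.99 for Mt2, still short of the rule. In endothelial cells other than lymphatic ones Mt1 had 298 UPM after bleomycin and 464 UPM after saline (log2 ratio -0.64), and Mt2 186 and 357 UPM (log2 ratio -0.94). A single bleomycin smooth muscle cell held 3920 haemoglobin UMIs, and without it the log2 ratios were 2.73 for Mt1 and 2.43 for Mt2.

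Metallothionein levels varied widely among fibroblasts of 1 library. Bleomycin clusters ranged from 1738 UPM of Mt1 in the Thbs4-led cluster to 8710 UPM in the Ptn- and Eln-led one. Saline clusters ranged from 365 UPM in the Slc7a10-led alveolar cluster to 4753 UPM in the cluster led by Il6 and Tnfaip6, so the libraries overlap. Within alveolar fibroblasts of the joint clustering the log2 ratios were 0.91 for Mt1 and 0.59 for Mt2, short of the rule, but 1.92 and 2.56 where each library was clustered alone. Within adventitial fibroblasts they were 1.95 and 2.30. Over 27 clusters of at least 50 cells, 13 bleomycin and 14 saline, Pearson's r between the log2 levels of Mt1 and Mt2 was 0.945; these points share libraries and depth. Over single thinned fibroblasts Spearman's rho was 0.798 in 3517 bleomycin cells and 0.543 in 3561 saline cells.

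**Figure D5:**
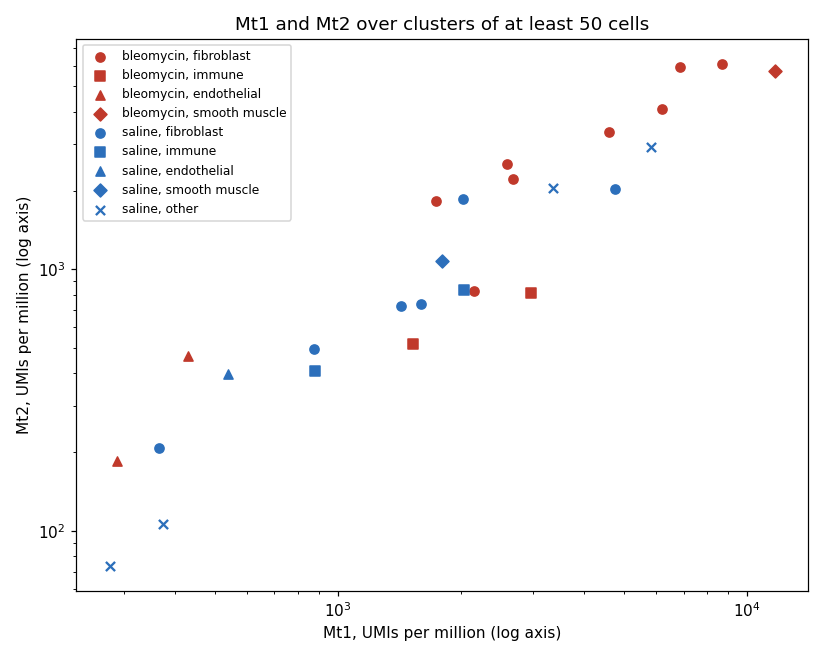
Mt1 (horizontal log axis) against Mt2 (vertical log axis), both in UPM, over 27 clusters of at least 50 cells; colour gives the library and shape the lineage. Clusters with more Mt1 had more Mt2 (r of 0.945); saline pericytes had the lowest Mt1 level and bleomycin smooth muscle cells the highest.

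The genes most like each member over these 27 clusters, by Pearson's r of log2 levels, were Rhob for Nr3c1 (0.914), Fkbp1b for Fkbp5 (0.827), Ifngr1 for Tsc22d3 (0.832), Zfp36 for Per1 (0.889), Med13l for Zbtb16 (0.820), Car5b for Sgk1 (0.852), Pdk4 for Mt1 (0.815) and Ppp1r13l for Mt2 (0.808). The second genes were Polr3gl, Tma16, Tm2d2, Tmcc3, Fam13c, Ttc39b, Ppp1r13l and Man1a2, in the same order. Each r is the highest found among all genes with at least 200 UMIs, over clusters that share libraries. Some of these genes lie near the floor, such as Car5b at 0 to 14.5 UPM and Ppp1r13l at 0 to 10.9 UPM over the clusters. Between members, Fkbp5 had r of 0.623 with Mt2 and -0.416 with Nr3c1.

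Other known glucocorticoid targets did not move as a block. Of 25 measured in fibroblasts 3 rose and 4 fell, with a median log2 ratio of -0.09 beside -0.05 over all genes. Of all fibroblast genes that could pass the rule, 6.17% rose and 9.69% fell. Those that rose were Anxa1, an anti-inflammatory annexin, at 930 UPM after bleomycin and 239 UPM after saline, Ddit4, an mTOR inhibitor, at 63.0 and 19.8 UPM, and Pdk4, which restrains pyruvate oxidation, at 29.2 and 8.83 UPM. In smooth muscle cells 6 of 21 rose and 2 fell, with a median of 0.56 beside 0.11 over all genes. Of all smooth muscle genes that could pass the rule, 6.31% rose and 3.87% fell. Those that rose there included Angptl4, a lipase inhibitor (70.5 UPM after bleomycin, 8.59 UPM after saline), glutamine synthetase Glul (360 and 80.7 UPM) and the transcription factor Klf15 (100 and 24.0 UPM). Errfi1 (174 and 455 UPM) and Nfkbia (261 and 785 UPM) fell in smooth muscle cells. In macrophages 0 of 25 rose and 2 fell, Errfi1 and Pdk4, beside 2.89% and 6.21% of all genes that could pass. In endothelial cells 3 of 23 rose and 5 fell, beside 9.67% and 10.2% of all genes that could pass. Anxa1 rose there, at 476 UPM after bleomycin and 104 UPM after saline. Dusp1, Klf9, Errfi1, Rgs2 and Cdkn1c fell there.

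Hsd11b1, the enzyme that regenerates active glucocorticoid inside cells, fell in 3 classes. It stood at 235 UPM in bleomycin fibroblasts and 852 UPM in saline ones (log2 ratio -1.85), with kinds of fibroblast pooled. Endothelial cells had 11.2 and 371 UPM, and macrophages 19.2 and 102 UPM. Fibroblasts had the highest of these levels in both libraries. The part of free RNA from fibroblasts in the endothelial and macrophage values was not tested. The fibroblast counts of the next lists stand beside 6.17% of all genes that could pass the rule and rose, and 9.69% that fell. Of the 13 receptor chaperones and cofactors, 0 rose and 2 fell in fibroblasts. These were the immunophilin Fkbp4 (52.7 UPM after bleomycin, 109 UPM after saline) and the coactivator Ncoa1. Of 22 metal homeostasis genes 2 rose in fibroblasts, Hmox1, which degrades haem (43.3 and 16.6 UPM), and the zinc transporter Slc39a6 (27.4 and 12.6 UPM). The ferritin chain Fth1 fell. The metallothionein gene Mt3 had 366 UMIs in bleomycin fibroblasts and 3 in saline ones (7.02 and 0.117 UPM), under the 20 UPM of the rule. Mt4 had 21 and 0 UMIs. Of 17 measured clock genes 0 passed the rule in fibroblasts, but several stayed under its 20 UPM in both libraries and could not pass. Among these, Npas2 (2.67 UPM after bleomycin, 9.56 UPM after saline) and Hlf (5.14 and 11.5 UPM) had log2 ratios of -1.53 and -1.02. Bhlhe40 and Nr1d1 rose in smooth muscle cells. Bhlhe40 fell in macrophages (194 UPM after bleomycin, 434 UPM after saline) and Rora fell in endothelial cells (20.8 and 74.9 UPM). The epithelial transcript Sftpc, which cells of these classes do not make, stood at 13.3 UPM in bleomycin fibroblasts and 808 UPM in saline fibroblasts, and epithelial cells numbered 5 in the bleomycin library and 470 in the saline library.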

How the data were processed

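Lung cells of 1 bleomycin and 1 saline library were counted per the labels' protocols with 10x Genomics 3' chemistry. The deposited values are unnormalized UMI counts, made by the authors with Cell Ranger 2.1.1 on mm10, per the submitters' processing notes; the annotation release is not given in the sources used here. Cells had at least 500 genes, 1000 UMIs and at most 10% mitochondrial UMIs. Scrublet's own threshold marked 4 bleomycin and 8 saline barcodes, under 0.5%, so the top 160 and 237 scores were left out. Clustering (scanpy 1.11.5, 2000 variable genes, 30 components, 15 neighbours, Leiden resolution 1, no integration) gave classes from fixed markers; naming thresholds were set after seeing clusters. Cluster 10 (Hhip, Fgf18) stayed unnamed and out. Counts were summed per class and library; log2 ratios used a prior of 1 UPM. Intervals are exact Poisson (levels), conditional binomial (ratios) and Clopper-Pearson (shares). There are no replicates, so no test was made. Genes and lists were chosen with earlier results of these data known. Named genes were the 8, up to 3 per list and class with the largest ratio past the size rule, and the 2 most like each. Further targets that fell, Mt3, Mt4, Npas2, Hlf and Dbp were named after seeing the data. The size rule was tested on simulated data. Cebpd is not in the files under that name.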

Additional observations from a re-analysis of the deposited data

Results flagged for a closer look

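Sgk1 was past the size rule in opposite directions in 2 classes, with a log2 ratio of bleomycin over saline of 1.10 in fibroblasts and -1.32 in smooth muscle cells. The difference between the classes was not tested, as each group is 1 library. Within alveolar fibroblasts the log2 ratio was -0.46 in the joint clustering and 0.90 where each library was clustered alone.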

How the results depend on the processing

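No paired analysis was possible because each group is 1 library, and no replicate could be left out. Of 376 recomputed ratios (8 genes in 4 classes), 318 kept their direction and side of the rule, 18 changed sign with the rule passed under neither setting, 24 lost the rule, 14 gained it and 2 past the rule reversed: Fkbp5 in macrophages, at -4.70 when the lowest level in other lineages was subtracted, and Sgk1 in fibroblasts, at -0.46 in alveolar fibroblasts of the joint clustering (0.90 with each library clustered alone). Thinning to 2000 UMIs leaves fewer UMIs for the rule: 0 genes then rose in macrophages, 0 rose and 1 fell in endothelial cells, and 2 rose and 0 fell in smooth muscle cells. Macrophages also had 0 genes that rose under the stricter cell filter, Leiden resolution 2 and the mean over cells, where Fkbp5 had log2 ratios of 0.95 to 0.96. The mean over cells gave 1 lower gene in endothelial cells. With the lowest level of other lineages subtracted, 2 genes fell in fibroblasts, 0 rose and 4 fell in macrophages, 5 fell in endothelial cells and 2 fell in smooth muscle cells; expression by those lineages enters that floor. A 1.5-fold rule gave 2 lower genes in fibroblasts and 2 in smooth muscle cells. Zbtb16 is also past 1.5-fold in both classes, in the higher direction, with 35.8 and 23.4 UPM in fibroblasts after bleomycin and saline. Its smooth muscle levels were 79.2 and 41.2 UPM. Shares at 1000 UMIs kept the sign of the difference for 29 of 32. The cause of each other change was not tested. Smooth muscle and endothelial values rest on few cells, where 50 UMIs carry a 95% interval of 37.1 to 65.9.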
